A study of Rattus norvegicus with 8 samples.

Results

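Cholangiocytes are the epithelial cells that line the bile ducts. They modify bile by secreting and absorbing ions, phosphate, bile acids and water, and they differ from hepatocytes in carrying the keratins Krt7 and Krt19, the surface adhesion protein Epcam, the transcription factor Sox9, the chloride channel Cftr, the phosphate transporter Slc34a2 and the secreted phosphoprotein Spp1, also called osteopontin. Bile ducts are a small part of the liver, so these mRNAs are diluted by those of hepatocytes in whole tissue. The 7 markers were followed here by every probe set that the platform annotation gives to their symbols. Of the 7, 6 had a probe set, 1 each, out of 31042 on the array without controls. Sox9 had none and was not analysed here.

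The livers came from male Sprague-Dawley rats of 180 to 200 g, whose age is not given in the sources used here. Each of 4 groups was measured on 2 Affymetrix arrays. The Dex+GW3965 group was gavaged for 3 days with GW3965 (50 mg/kg), a synthetic agonist of the liver X receptors (LXRs), and on the final day was injected intramuscularly with dexamethasone (1.5 mg/kg), a synthetic agonist of the glucocorticoid receptor (GR). The Dex group received the oral vehicle and the same injection, the GW3965 group the agonist and saline, and the vehicle group the oral vehicle and saline. All livers were taken 24 h after the injection, and the comparisons ask how the LXR agonist changes the response to the steroid. Both arrays of a group carry 1 liver number in the labels and are told apart by the letter a or b, although 2 animals per group are mentioned in the methods. The p-values measure only the spread between these arrays, which may be technical. The values are the authors' deposited log2 signals, and the medians of the arrays lay between 5.48 and 5.52. The level 5.493, the mean of these medians, was used as a floor. A group mean under it was taken as not above background, and a difference from or to such a group is given as at least its size against the floor. A probe set was tested when 2 or more arrays gave it a signal above their median. Of the 31042, 16253 passed, among them 4 of the 6 marker probe sets (Slc34a2, Epcam, Spp1 and Krt19). Krt19 passed only through its vehicle arrays. Adjusted p-values are those of limma over all 16253, with a call at an adjusted p under 0.05.

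The expression of the markers did not follow a common pattern. Against vehicle, Slc34a2 was lower in Dex, Epcam and Spp1 were higher in Dex+GW3965 while Slc34a2 was lower, and Spp1 was higher and Slc34a2 and Epcam lower in GW3965. Krt7 and Cftr lay under the floor on all 8 arrays, and Krt19 was above it in the vehicle group only, so that it gives no more than a bound in the other 3 groups. Slc34a2, Epcam and Spp1 were thus the markers with levels above background beyond the vehicle group, with Spp1 near the floor. Against vehicle, 2 of the 4 tested markers were called lower in Dex and none higher, where 24.7% of all tested probe sets were called lower and 17.2% higher. In GW3965, 3 were lower and 1 higher, against 14.5% lower and 5.93% higher of all tested (2362 and 963 probe sets, or 1505 and 1208 after quantile normalization). Without 1 array, 1 to 4 markers were called in GW3965, and all calls there numbered 1791 to 3243 in place of 3325, the lowest without GW3965 array b and 2110 without GW3965 array a. The Slc34a2 call in GW3965 held without any 1 array, while those of Spp1, Epcam and Krt19 were each lost without at least 1. In Dex+GW3965, 2 were lower and 2 higher, against 21.2% lower and 15.6% higher. The median log2 fold change was -0.16 for the 4 and -0.02 for all tested probe sets in Dex+GW3965, -0.55 and -0.01 in Dex, and -0.36 and -0.03 in GW3965. Since Krt19 was tested only because of its vehicle level, these counts and medians describe the markers and test nothing. In whole liver, changes in the number of cholangiocytes, in mRNA per cholangiocyte and in the mRNA of other liver cells cannot be told apart.

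**Figure D1:**
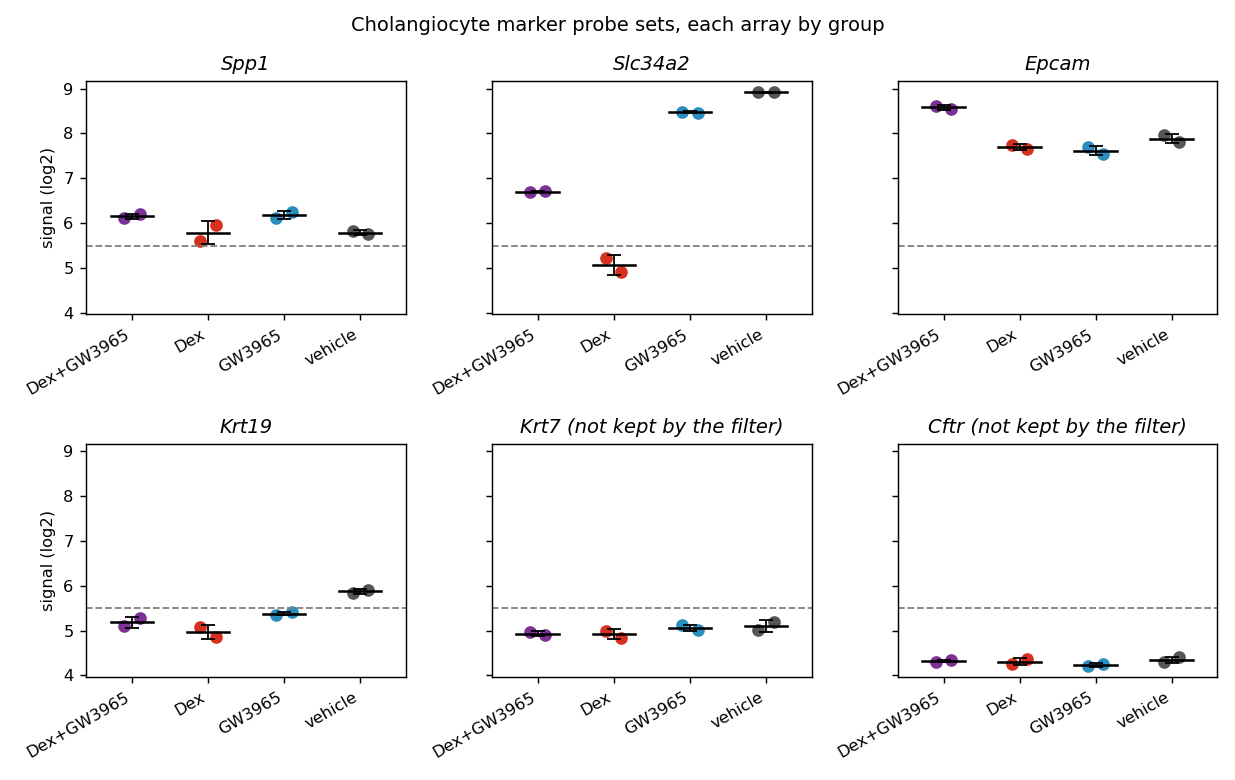
Signal (log2, vertical axis) of the 6 marker probe sets on each of the 8 arrays (points), by group, with the mean (bar) and SD (whiskers) of the 2 arrays and the floor of 5.493 (dashed). Slc34a2 stands near 9 in vehicle and under the floor in Dex, Epcam is highest in Dex+GW3965, and Krt7 and Cftr stay under the floor on all arrays.

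Slc34a2 encodes a sodium-dependent phosphate cotransporter of apical membranes, known from the biliary epithelium and from type II cells of the lung. Its probe set (1368168_at) read 6.70 and 6.71 in Dex+GW3965 livers, 5.23 and 4.91 in Dex livers, 8.49 and 8.46 in GW3965 livers and 8.93 and 8.92 in vehicle livers, all as log2 signals. The arrays of the 4 groups did not overlap, with vehicle highest, then GW3965, then Dex+GW3965, and Dex lowest. Slc34a2 fell in Dex livers to a mean of 5.07, against 8.92 in vehicle livers, which is at least 10.8-fold lower with the floor in place of the Dex level (log2 fold change of the measured values -3.85, SE 0.0911, adjusted p = 6.46e-16). By the measured values, which include the Dex level under the floor, only 3 of the 16253 tested probe sets had a lower log2 fold change. Slc34a2 thus stood at rank 4 from the bottom in this comparison, while the bound of -3.43 gives no set rank. GW3965 alone lowered it 1.37-fold (log2 fold change -0.45, adjusted p = 0.00178). With both compounds it was 4.66-fold lower than in vehicle livers (log2 fold change -2.22, adjusted p = 1.69e-12) and 3.41-fold lower than with GW3965 alone (log2 fold change -1.77, adjusted p = 3.94e-11).

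Against dexamethasone alone, Slc34a2 was higher in the combination by at least 2.31-fold (log2 fold change of the measured values 1.63, adjusted p = 4.36e-10). The level under both compounds therefore lay between those of the single treatments. The interaction of the 2 compounds, the part of the combined effect that the sum of the single effects on the log2 scale leaves over, was 2.08 (SE 0.129, adjusted p = 2.42e-09), and 1.66 with the Dex level set to the floor. Each of these calls was kept without any 1 of the 8 arrays. In the 2 comparisons set against other treatments, 22.8% (Dex+GW3965 against Dex) and 35.8% (Dex+GW3965 against GW3965) of all tested probe sets were called, with 3 and 2 of the 4 markers among them, and for the interaction 22.8% of all and 3 of the 4, counting Krt19, for which 3 of the groups were under the floor.

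Since Slc34a2 had the widest range of the markers, the 250 bases before its RefSeq start are shown (GRCr8, chr14:62143073-62143322, minus strand, 5′ to 3′). The window lies inside the gene as annotated, which extends further upstream. Capitals mark overlapping copies of TATATA, which begin 45 and 43 bases before the start.
Slc34a2: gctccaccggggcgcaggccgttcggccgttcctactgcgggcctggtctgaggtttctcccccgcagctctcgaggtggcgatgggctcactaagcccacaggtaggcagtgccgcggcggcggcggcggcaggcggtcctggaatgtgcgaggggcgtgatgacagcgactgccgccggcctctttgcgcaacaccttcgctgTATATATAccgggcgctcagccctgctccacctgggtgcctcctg

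TATATA, a form of the TATA element that reads the same on both strands, occurs in 5.45% of 33469 windows of this length in the RefSeq table. The hexamers AGAACA, the core bound by the GR, and AGGTCA, bound by many nuclear receptors as a pair of copies, were searched on both strands and are not in this window. They occur in 17.5% and 14.1% of all windows.

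The genes whose signal over the 8 arrays was most like that of Slc34a2, among 813 probe sets that name 1 other gene and span at least 1 log2 unit between group means, were Slc13a4 (Pearson r = 0.9994, n = 8 arrays) and Poteml2 (r = 0.998). Slc13a4, a sodium-dependent sulfate cotransporter, read 8.87 and 8.84 in Dex+GW3965, 7.98 and 7.76 in Dex, 9.92 and 9.89 in GW3965 and 10.09 and 10.14 in vehicle livers. It thus had the same order of groups as Slc34a2. These likenesses rest on 4 group levels and are given as a description.

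Epcam encodes a homophilic adhesion protein of epithelial cells, which in the adult liver is carried by bile ducts and progenitor cells. Its signals (probe set 1388199_at) were 8.62 and 8.54 in Dex+GW3965 livers, 7.75 and 7.65 in Dex livers, 7.69 and 7.55 in GW3965 livers and 7.96 and 7.82 in vehicle livers. Both Dex+GW3965 arrays lay above the other 6, while the arrays of Dex and GW3965 overlapped each other and lay below those of vehicle. Epcam was 1.62-fold higher in Dex+GW3965 than in vehicle (log2 fold change 0.70, SE 0.0739, adjusted p = 6.08e-07), 1.84-fold higher than in Dex (adjusted p = 8.76e-08) and 1.95-fold higher than in GW3965 (adjusted p = 9.28e-09). The single compounds stood on the other side of vehicle, at a log2 fold change of -0.27 for GW3965 (adjusted p = 0.0165) and -0.19 for Dex, which did not pass (adjusted p = 0.0539, with a 95% interval of -0.34 to -0.03). The GW3965 call was lost without vehicle array a (log2 fold change -0.20, adjusted p = 0.137), without GW3965 array b (-0.20, adjusted p = 0.196) and in a fit without an intensity trend (adjusted p = 0.0627). The Dex difference was -0.26 without vehicle array b and -0.11 without vehicle array a. It passed with the probe sets of each gene averaged (adjusted p = 0.0452). It did not pass after quantile normalization (-0.14, adjusted p = 0.154), without the filter (adjusted p = 0.0874) or without an intensity trend (adjusted p = 0.0991). The interaction was 1.15 (SE 0.105, adjusted p = 3.53e-07), and it was kept without any 1 array, as were the 3 calls of the combination.

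The window before the start of Epcam is given beside that of Slc34a2, since the group order of the 2 genes differed (GRCr8, chr6:12649679-12649928, minus strand, 5′ to 3′). It lies outside the annotated gene, and capitals mark 4 copies of GGGCGG, the GC box bound by Sp-type factors.
Epcam: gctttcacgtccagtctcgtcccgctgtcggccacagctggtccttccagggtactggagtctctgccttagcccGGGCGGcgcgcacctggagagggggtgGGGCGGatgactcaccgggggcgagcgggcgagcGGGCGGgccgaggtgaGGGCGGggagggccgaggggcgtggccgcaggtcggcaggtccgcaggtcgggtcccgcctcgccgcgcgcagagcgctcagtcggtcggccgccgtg

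GGGCGG or its other strand occurs in 30.5% of all windows and not in that of Slc34a2, while the other 3 hexamers are not in that of Epcam. The Spp1 window holds none of these hexamers, and that of Cftr holds 2 copies of GGGCGG. A link between the hexamers and the order of the groups was not tested. Cdh17, a cadherin of intestinal and other gut-derived epithelia, was the gene most like Epcam (r = 0.9744, n = 8 arrays, among 814 probe sets). It read 10.55 and 10.53 in Dex+GW3965, 9.40 and 9.29 in Dex, 9.15 and 9.16 in GW3965 and 9.72 and 9.78 in vehicle livers, so that its groups had the order of those of Epcam. Oas1b, an antiviral enzyme gene, was next (r = 0.9503). It was above the floor in Dex+GW3965 alone, at a group mean of 6.07.

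Spp1 encodes osteopontin, an integrin- and CD44-binding phosphoprotein made by bile duct cells and, in injury, by macrophages and stellate cells. Its signals (probe set 1367581_a_at) were 6.11 and 6.19 in Dex+GW3965 livers, 5.60 and 5.96 in Dex livers, 6.12 and 6.25 in GW3965 livers and 5.82 and 5.74 in vehicle livers. The 4 arrays with GW3965 lay above the 4 without it, and the pair of Dex arrays was the widest (SD 0.253). Spp1 rose 1.32-fold in GW3965 (log2 fold change 0.40, SE 0.121, adjusted p = 0.0256) and 1.29-fold in Dex+GW3965 (0.37, adjusted p = 0.0243) against vehicle, and was 1.29-fold higher in Dex+GW3965 than in Dex (adjusted p = 0.0367). The Dex level differed from vehicle by a log2 fold change of -0.00 (95% interval -0.26 to 0.25, adjusted p = 0.994), and Dex+GW3965 differed from GW3965 by -0.04 (95% interval -0.29 to 0.22). The interaction was -0.03 (95% interval -0.40 to 0.33, adjusted p = 0.915). These calls were the least firm, and the signals lay near the floor of 5.493. In a fit without an intensity trend, the calls of GW3965 against vehicle (adjusted p = 0.0518) and Dex+GW3965 against Dex (adjusted p = 0.0615) were lost. That of Dex+GW3965 against vehicle was kept (adjusted p = 0.038). Without 1 array the adjusted p ranged from 0.0133 to 0.201 for GW3965 against vehicle, and the call was lost without any 1 array of either group. It ranged from 0.0118 to 0.134 for Dex+GW3965 against vehicle, where it was lost without either Dex+GW3965 array or vehicle array b, and from 0.00891 to 0.373 for Dex+GW3965 against Dex, where 3 of 8 calls were kept. The genes most like Spp1 were LOC100910973 (r = 0.8486) and the mitochondrial carrier gene Slc25a30 (r = 0.8316), the lowest likeness among the 4 tested markers.

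Krt19 encodes a type I keratin of simple epithelia and is a standard stain for bile ducts. Its signals (probe set 1388433_at) were 5.09 and 5.27 in Dex+GW3965 livers, 5.07 and 4.85 in Dex livers, 5.35 and 5.41 in GW3965 livers and 5.83 and 5.91 in vehicle livers. Both vehicle arrays lay above the other 6 and above the floor, which none of the others reached. Each treated group was therefore lower than vehicle by at least 1.30-fold, with the same bound for all 3. Krt19 entered the test through the vehicle arrays alone, so its p-values are conditional on the group where it was high, and they compare that group with levels not above background. With this limit, the measured log2 fold changes were -0.69 in Dex+GW3965 (SE 0.123, adjusted p = 0.000205), -0.91 in Dex (adjusted p = 8.24e-06) and -0.50 in GW3965 (adjusted p = 0.00802). Without GW3965 array a, the last had an adjusted p of 0.0674. Differences among the treated groups lay under the floor on both sides, so no fold is given, and their adjusted p-values were 0.222 for Dex+GW3965 against Dex and 0.238 against GW3965. The measured interaction of 0.72 (adjusted p = 0.00606) rests on 3 groups under the floor and gives no measured difference in the effect of either compound. The genes most like Krt19 were Cdc42ep3, an effector of the GTPase Cdc42 (r = 0.9826), and Xpnpep2, a membrane aminopeptidase (r = 0.9797). Xpnpep2 was well above the floor, with group means of 7.81 in Dex+GW3965, 7.73 in Dex, 8.23 in GW3965 and 8.84 in vehicle livers.

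Krt7, the other keratin of bile ducts, and Cftr, the chloride channel through which secretin drives fluid secretion, gave no level above background. Krt7 (1373900_at) read between 4.84 and 5.20 and Cftr (1384960_at) between 4.21 and 4.40 over the 8 arrays. In a fit without the filter, the smallest adjusted p of Krt7 among the 3 comparisons with vehicle was 0.328, in Dex, and that of Cftr was 0.641, in GW3965. A change of these mRNAs was not detectable on this array, which does not show that they stayed level.

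**Figure D2:**
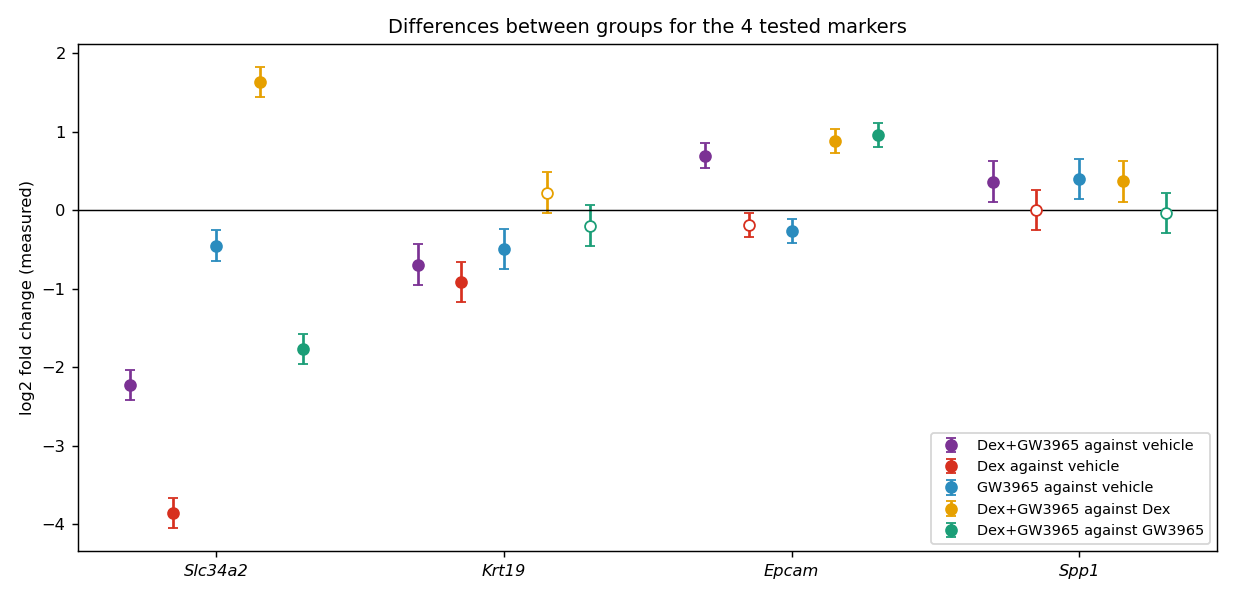
Measured log2 fold change (vertical axis) of the 4 tested markers in 5 comparisons, with the 95% interval of the limma fit (whiskers). Filled points passed an adjusted p of 0.05 and open points did not. Slc34a2 has the largest differences, from -3.85 in Dex to 1.63 between Dex+GW3965 and Dex. Points of Krt19, and those of Slc34a2 that involve Dex, include levels under the floor.

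The counts of other biliary genes are read against the shares of all tested probe sets given above, which were 15.6% higher and 21.2% lower in Dex+GW3965, 17.2% and 24.7% in Dex and 5.93% and 14.5% in GW3965. With 5 to 10 tested genes in a list, these counts describe the genes and do not set a list apart. Of 14 genes of keratins, junctions and adhesion, 13 were on the array and 5 passed the filter. Against vehicle, 1 was higher and 1 lower in Dex+GW3965 (median log2 fold change -0.00), none was higher and 4 were lower in Dex (median -0.39), and 2 were higher and 1 lower in GW3965 (median 0.06). Cldn3, a claudin of tight junctions, fell in Dex+GW3965 (log2 fold change -0.95, adjusted p = 9.18e-12) and in Dex (-1.15, adjusted p = 5.04e-13). The keratin Krt8 fell in Dex (-0.42, adjusted p = 5.53e-07) and rose in GW3965 (0.37, adjusted p = 1.23e-05), and so did its partner Krt18 (-0.15 in Dex and 0.12 in GW3965). E-cadherin, Cdh1, fell in Dex (-0.39) and in GW3965 (-0.23). Krt8, Krt18 and Cdh1 are also made by hepatocytes.

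Of 15 genes of biliary transport and secretion, 14 were on the array and 10 were tested. None was higher and 3 were lower in Dex+GW3965 (median -0.12), 1 was higher and 4 lower in Dex (median -0.05), and none was higher and 2 lower in GW3965 (median -0.04). Slc10a2, the apical bile acid transporter that cholangiocytes share with the ileum, read 7.18 and 7.06 in Dex+GW3965, 5.77 and 5.85 in Dex, 7.51 and 7.43 in GW3965 and 7.45 and 7.55 in vehicle livers. Its Dex arrays lay apart from all others. Slc10a2 fell in Dex (-1.68, adjusted p = 2.51e-11) and in Dex+GW3965 (-0.38, adjusted p = 0.00185). Nherf1, a scaffold of apical transporters and of Cftr, fell in Dex+GW3965 (-0.51, adjusted p = 9.94e-08) and in Dex (-0.72, adjusted p = 7.56e-10).

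The list holds 4 other phosphate carriers that were tested. Slc20a1, a widely expressed sodium-phosphate transporter, rose in Dex (0.47, adjusted p = 5.79e-05) and stood at -0.02 in Dex+GW3965. The phosphate exporter Xpr1 fell in Dex (-0.30, adjusted p = 0.025) and in GW3965 (-0.34, adjusted p = 0.0231). Slc20a2, a close relative of Slc20a1, was lower in Dex+GW3965 (-0.24, adjusted p = 0.00428), Dex (-0.19, adjusted p = 0.0165) and GW3965 (-0.18, adjusted p = 0.0438). Slc34a3, a paralog of Slc34a2, did not pass in any comparison with vehicle, at 0.00 in Dex+GW3965, 0.03 in Dex and -0.02 in GW3965.

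Of 19 genes of biliary transcription factors, Notch and YAP signaling and cilia, which specify and maintain the ducts, 15 were on the array and 10 were tested. In Dex+GW3965 3 were higher and 2 lower (median 0.02), in Dex 3 higher and 4 lower (median -0.09), and in GW3965 2 higher and 1 lower (median 0.12). Sox4, which acts with Sox9 in mouse duct development, read 6.31 and 6.33 in Dex+GW3965, 5.68 and 5.52 in Dex, 7.83 and 7.76 in GW3965 and 7.97 and 8.08 in vehicle livers, the same order of groups as Slc34a2. It fell in Dex+GW3965 (-1.70, adjusted p = 4.07e-11) and in Dex (-2.42, adjusted p = 2.23e-13), while its difference in GW3965 did not pass (-0.23, adjusted p = 0.0805). Ccn2, a YAP target and matrix protein, stood at -0.00 in Dex+GW3965 and rose in Dex (1.76, adjusted p = 3.99e-10). Hey1, a Notch target, averaged 5.87 in Dex+GW3965 and 6.30 in Dex, and was under the floor in GW3965 and vehicle. Onecut1, a factor of hepatocytes and ducts, rose in Dex+GW3965 (0.96, adjusted p = 6.28e-09) and GW3965 (2.31, adjusted p = 2.39e-13) and fell in Dex (-0.97).

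Of 9 osteopontin receptor genes, 8 were on the array and 7 were tested, and none was called higher than vehicle. In Dex+GW3965 2 were lower (median -0.16), in Dex 4 (median -0.18) and in GW3965 2 (median -0.12). The 4 in Dex were the integrin genes Itgav (-0.40), Itga5 (-0.37), Itgb5 (-0.16) and Itgb1 (-0.13).

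Markers of the other liver cells also differed between the groups, to be read against the same shares of all tested probe sets, and their part in the results was not tested. Of 13 stellate cell and fibroblast markers, 2 were higher and 8 lower in Dex+GW3965 (median -0.69), 3 higher and 9 lower in Dex (median -0.70) and none higher and 8 lower in GW3965 (median -0.28). Their summed linear signal lay between 3868 and 3903 in Dex+GW3965, 3948 and 4126 in Dex, 5173 and 5254 in GW3965 and 6464 and 6539 in vehicle livers. Such sums, here and below, weigh the brightest genes of a list most and do not measure the amount of a cell type. In Dex, Lrat, the retinol esterifying enzyme of stellate cells, stood at -1.24 and the intermediate filament gene Vim at -1.18. Lum was lower and under the floor in Dex, at a mean of 3.83 against 6.51 in vehicle livers. Rgs5 was higher in Dex, at a mean of 6.62 against a vehicle mean of 5.38, under the floor. Of 10 Kupffer cell and macrophage markers, 1 was higher and 7 lower in Dex+GW3965 (median -0.31), 1 higher and 6 lower in Dex (median -0.35) and 4 higher and 1 lower in GW3965 (median 0.13). Their summed signal was 5923 to 6047 in Dex+GW3965, 5487 to 5501 in Dex, 7110 to 7127 in GW3965 and 7020 to 7099 in vehicle livers. In Dex the lysozyme gene Lyz2 stood at -0.75, Cd5l at -0.66 and the complement gene C1qa at -0.54. Cd163 was the 1 called higher there, at 0.29. Adgre1 was lower and under the floor in Dex, at a mean of 5.31 against 6.10 in vehicle livers. Lyz2 was the marker called lower in GW3965, at -1.37. The 4 called higher in GW3965 were Cd5l (0.75), Clec4f (0.51), C1qb (0.33) and C1qa (0.27).

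Of 6 tested sinusoidal endothelial markers, 1 was higher and 4 lower in Dex+GW3965 (median -0.37), 1 higher and 3 lower in Dex (median -0.18) and 1 higher and 1 lower in GW3965 (median -0.00). Their summed signal was 2793 to 2827 in Dex+GW3965, 3184 to 3217 in Dex, 3792 to 3801 in GW3965 and 3804 to 3849 in vehicle livers. In Dex the scavenger receptor gene Stab2 stood at -0.70, Kdr at -0.33, Fcgr2b at -0.22 and Tek at 0.33. Of 9 tested hepatocyte markers, 3 were higher and 3 lower in Dex+GW3965 (median -0.00), 2 higher and 3 lower in Dex (median 0.02) and none higher and 4 lower in GW3965 (median -0.07). Their summed signal was 149900 to 150300 in Dex+GW3965, 147700 to 149500 in Dex, 133500 to 135600 in GW3965 and 138500 to 142600 in vehicle livers. In Dex the urea cycle gene Ass1 stood at 0.66, Apoa1 at 0.50, the fibrinogen gene Fgb at -0.28 and Ttr at -0.10.

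**Figure D3:**
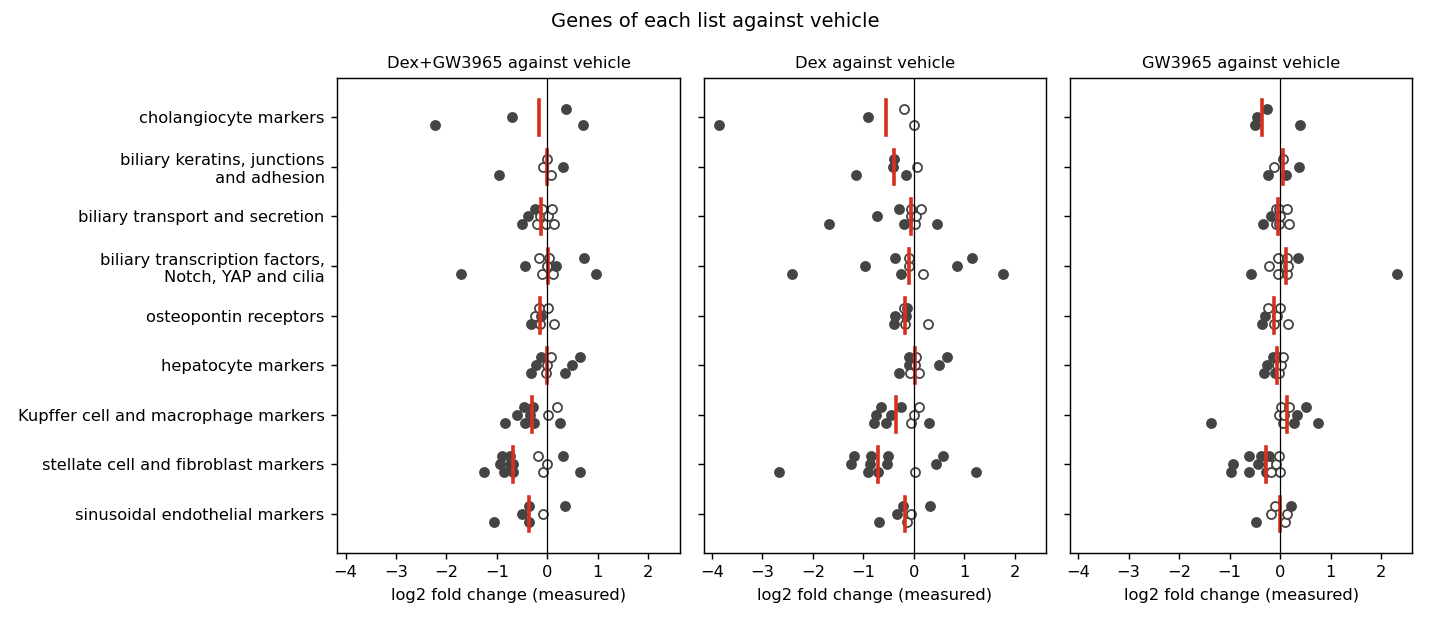
Measured log2 fold change against vehicle (horizontal axis) of each tested gene of the cholangiocyte markers and of 8 other lists, in Dex+GW3965, Dex and GW3965 (panels). Filled points passed an adjusted p of 0.05, open points did not, and the red line is the median of a list. In Dex the lowest point of all is Slc34a2 at -3.85, and the stellate cell list has the lowest median, -0.70. Some points include levels under the floor.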

How the data were processed

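The arrays measured mRNA of rat liver. The authors deposited 1 log2 signal for each of 31099 probe sets on each of 8 arrays. Per the methods, UniGene served to re-map the probes, and perfect-match signals were taken with background subtraction by MAS. MAS5, with no version, is named in the submitters' processing notes. How arrays were scaled is not given in the sources used here, and the log2 scale was read from the values (2.497 to 14.95). No detection calls were used, so the floor stands in for them.

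From these, 57 Affymetrix controls were removed. Of the 31042 left, the platform annotation gives 20826 1 symbol, 436 several and 9780 none, and 20758 were updated by gene identifier. A group means model of all 8 arrays was fitted to the 16253 probe sets kept, using lmFit and eBayes with an intensity trend (limma 3.58.1, R 4.3.3, with 4 residual and 12.7 prior degrees of freedom), and p-values were adjusted by Benjamini-Hochberg. With 2 arrays per group, the number of arrays limits the precision. In lists, each gene was read on its brightest kept probe set with 1 symbol. Promoter windows come from a table of RefSeq sequences (GRCr8), in which 4 of the 7 markers were matched. The code was tested on simulated data.

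Named were all markers, from each list up to 4 genes with the largest called changes in Dex (or else in Dex+GW3965), and the 2 genes most like each tested marker. Slc20a2, Slc34a3, Cd163, Clec4f, C1qb and values in the closing section fall outside this rule and were chosen after their values were seen. The markers and lists were chosen with earlier results of these data known. Alternatives were quantile normalization, no filter, a filter on mean signal, no trend, only the groups compared, the replicate letter as a block, leaving out each array, averaging probe sets of a gene, and the methods' t-test.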

Additional observations from a re-analysis of the deposited data

Results flagged for a closer look

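By the interaction term of the limma fit, which was called for 22.8% of all tested probe sets, the effect of dexamethasone differed with GW3965 present for Slc34a2 and Epcam. For Slc34a2 the term was 2.08 on the log2 scale (adjusted p = 2.42e-09), with dexamethasone at -1.77 in the presence of GW3965 and -3.85 without it, where the Dex level was under the floor. For Epcam it was 1.15 (adjusted p = 3.53e-07), with dexamethasone at 0.96 in the presence of GW3965 and -0.19 without it. For Krt19 the term also passed, at 0.72 (adjusted p = 0.00606), but only the vehicle level was above background and Krt19 was tested because of that level, so no difference in effect was measured.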

How the results depend on the processing

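With 2 arrays per group and no detection calls, levels near the floor are the least certain. Under the other settings, Slc34a2 kept its direction and its calls in each comparison, where the methods' t-test is read at its unadjusted threshold and was not run on the interaction. Quantile normalization gave 1208 higher and 1505 lower calls for GW3965 against vehicle, in place of 963 and 2362, and 1843 and 1589 for the interaction, in place of 2571 and 1127. It turned the sign of Spp1 in Dex against vehicle, which is near 0, to 0.00299. Averaging the probe sets of a gene, which tests fewer features, gave 4408 genes called for Dex, 2079 for GW3965 and 3949 for Dex+GW3965 against vehicle, 2442 for Dex+GW3965 against Dex, 3870 against GW3965 and 2369 for the interaction. The methods' t-test gave 4311 for Dex, 3770 for Dex+GW3965 and 3722 for Dex+GW3965 against GW3965 at its unadjusted threshold, and 2803 for GW3965 and 2714 for Dex+GW3965 against Dex, with 0 in all 5 after Benjamini-Hochberg adjustment. By that test 1 marker was called in Dex, 2 in GW3965 and 2 in Dex+GW3965 against vehicle. With a filter on the mean signal, which drops Krt19, 1 marker was called in Dex, and without a trend 2 were called in GW3965. Spp1 in Dex+GW3965 against Dex had an adjusted p of 0.0525 without the filter and 0.0615 without a trend. Without 1 array, markers called numbered 1 to 2 in Dex, 1 to 4 in GW3965 and 2 to 4 in Dex+GW3965 against vehicle, Krt19 not being tested without a vehicle array. All calls numbered 1791 to 3243 for GW3965 against vehicle (the lowest without GW3965 array b, and 2110 without array a) and 2343 to 4011 for Dex+GW3965 against Dex (2343 without Dex+GW3965 array b and 2376 without Dex array b). Spp1 then ranged from -0.18 to 0.18 in Dex against vehicle, from -0.10 to 0.0279 in Dex+GW3965 against GW3965 and from -0.21 to 0.14 for the interaction, never called. The letters a and b do not pair the arrays, as deviations from group means correlated between -0.232 and 0.0831. With the replicate block, Epcam in Dex against vehicle passed (-0.19, adjusted p = 0.0354; 0.0452 with probe sets averaged), and the block changed no other call of a marker.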

Other observations

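Some biliary genes outside the rule for naming genes also differed between treatments. Hes1, a Notch target, stood at -0.11 in Dex+GW3965 (adjusted p = 0.252), 0.85 in Dex (adjusted p = 2.56e-08) and 0.14 in GW3965 (adjusted p = 0.2) against vehicle, and Ccn2 and Slc20a1 likewise passed in Dex and not in Dex+GW3965. Notch1 itself went the other way, at -0.37 in Dex (adjusted p = 0.00321) and -0.57 in GW3965 (adjusted p = 0.000232). In Dex+GW3965 it stood at -0.16 and did not pass. Anxa4, an annexin of duct epithelium, rose in Dex+GW3965 (0.31, adjusted p = 0.00182) and stood at 0.07 in Dex and 0.06 in GW3965, neither of which passed. Onecut2 stood at 0.16, -0.25 and 0.35, all called, the same order of signs as Onecut1.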
